A study of Mus musculus with 8 samples.

Results

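The receptors described here are 10 genes by which natural killer (NK) cells read other cells, measured cell by cell in the arthritic paws of mice. They are the Ly49 genes Klra4, Klra7, Klra8 and Klra9, the NKR-P1 genes Klrb1c and Klrb1b, the lectin-like receptor genes Klre1, Klrd1 and Klrk1, and Ncr1. All 10 were among the 28434 gene rows of both deposited tables. They were read in cells with at least 2 unique molecular identifiers (UMIs) of Ncr1, Klrb1c, Klre1 and Klra8 together, in the other classes of leukocyte, and between the groups of mice. Paws came from 4 Mono+MCTR3 mice and 4 Mono mice, all C57BL/6 animals of 10 weeks with arthritis from K/BxN serum injected on day 0, day 2 and day 9. Each then received, on day 12, monocytes taken from arthritic mice, which had been kept for 90 min with 1 nM MCTR3, a lipid mediator, in the Mono+MCTR3 group and with vehicle in the Mono group. Living CD45+ leukocytes were sorted from the paws on day 22 and sequenced with the 10x Chromium 3′ kit, so that transferred and host cells were not told apart.

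Of 10538 cell barcodes 10256 passed the filter (500 UMIs or more, 250 to 3000 genes and no more than 5% of UMIs from mitochondrial genes), 5015 from Mono+MCTR3 and 5241 from Mono. A mouse gave 758 to 1913 cells and 1731045 to 6009009 UMIs, with a median of 1685.5 to 2428 UMIs per cell. Mice of a group were separated by the suffix of the barcode, whose numbers are used as their names here because no label ties a suffix to a mouse, and each counts as 1 replicate. Cells were clustered with the 10 receptor genes left out, and 1 cluster of 635 cells (246 from Mono+MCTR3 and 389 from Mono) was NK-like, with all 14 NK markers detected. Of the 635 cells 95.4% held a UMI of Gzma, which encodes granzyme A, and 99.8% one of Nkg7, a gene of cytotoxic granules, while Prf1, which encodes perforin, was seen in 28.3%. Of the T-cell genes Cd3e was seen in 0.472%, Cd3g in 2.52% and Cd3d in 3.94% of them, but Trbc1 in 58.1%, Trbc2 in 32.8% and Cd28 in 24.1%.

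NK cells kill infected or altered cells and carry no rearranged antigen receptor. Their readiness is set by a balance of inhibitory receptors, many of which bind MHC class I, and activating receptors, which signal through adaptor proteins such as those encoded by Tyrobp and Hcst. Mouse Ly49 receptors are switched on gene by gene in each NK cell and then largely kept, so that NK cells of 1 animal carry different sets, a pattern called variegation. In C57BL/6 mice Klra4 encodes Ly49D and Klra8 encodes Ly49H, both activating, and Ly49H binds a protein of mouse cytomegalovirus. Klra7 encodes Ly49G and Klra9 encodes Ly49I, both inhibitory.

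Of the 10 genes 9 lie in the NK gene complex of chromosome 6, over 1454838 bases, and Ncr1 lies on chromosome 7 (4337724 to 4345164, GRCm38 with the GENCODE vM21 annotation). In order along chromosome 6 they are Klrb1c (128778485 to 128789215), Klrb1b (128813706 to 128826331), Klre1 (129577905 to 129585827), Klrd1 (129591782 to 129598775), Klrk1 (129610323 to 129623864), Klra4 (130043731 to 130067271), Klra8 (130115226 to 130129898), Klra9 (130178675 to 130193112) and Klra7 (130218605 to 130233322). The 4 Ly49 genes share the minus strand. Because NK cells choose among these neighbours gene by gene, the stretches around their start sites are printed for comparison, from RefSeq on GRCm38.p6. Each runs 5′ to 3′ from 250 bases before to 50 after the start. For Klra7 and for Klra8 the start nearer in sequence to Klra4 of the 2 listed is shown. Capitals mark bases that differ from Klra4, or have no partner in it, in a pairwise alignment. The regions are chr6:130067222-130067521 (Klra4), chr6:130129849-130130148 (Klra8), chr6:130193063-130193362 (Klra9) and chr6:130233273-130233572 (Klra7).
Klra4: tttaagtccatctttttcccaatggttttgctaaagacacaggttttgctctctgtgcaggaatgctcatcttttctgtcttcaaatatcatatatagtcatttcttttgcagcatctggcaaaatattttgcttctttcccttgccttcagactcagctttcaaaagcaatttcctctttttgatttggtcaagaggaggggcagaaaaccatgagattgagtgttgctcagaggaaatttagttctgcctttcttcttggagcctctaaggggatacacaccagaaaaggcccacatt
Klra8: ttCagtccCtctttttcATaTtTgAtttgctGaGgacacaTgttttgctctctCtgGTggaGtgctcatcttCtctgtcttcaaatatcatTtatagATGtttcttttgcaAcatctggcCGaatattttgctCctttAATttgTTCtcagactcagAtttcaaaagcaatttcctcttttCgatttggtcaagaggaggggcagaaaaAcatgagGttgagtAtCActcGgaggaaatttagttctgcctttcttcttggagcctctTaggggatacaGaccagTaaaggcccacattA
Klra9: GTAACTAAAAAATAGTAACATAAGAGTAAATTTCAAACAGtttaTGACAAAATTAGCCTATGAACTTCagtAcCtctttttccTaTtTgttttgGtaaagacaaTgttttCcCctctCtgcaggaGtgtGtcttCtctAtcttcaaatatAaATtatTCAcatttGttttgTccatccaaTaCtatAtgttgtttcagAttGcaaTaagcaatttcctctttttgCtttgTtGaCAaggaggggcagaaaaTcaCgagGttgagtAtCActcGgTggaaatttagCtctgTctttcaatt
Klra7: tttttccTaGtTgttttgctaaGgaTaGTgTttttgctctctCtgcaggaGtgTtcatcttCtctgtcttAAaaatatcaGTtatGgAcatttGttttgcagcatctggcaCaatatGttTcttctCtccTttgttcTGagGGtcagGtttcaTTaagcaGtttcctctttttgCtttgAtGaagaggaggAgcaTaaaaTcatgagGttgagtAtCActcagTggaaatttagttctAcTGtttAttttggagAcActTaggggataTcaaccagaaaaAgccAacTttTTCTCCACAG
The activating pair Klra4 and Klra8 were the most alike, with 259 of 300 bases of Klra8 (86.3%) identical to Klra4 and 41 in capitals. Klra7 had 236 identical bases (78.7%) and Klra9 had 193 (64.3%). Shares are of the whole window, so bases with no partner in the alignment count as not identical. Klra9 opens with a long stretch of mostly such bases, so its 64.3% mixes a shift of the window with differences in sequence. The letters TGTGGT, a core bound by Runx factors, were searched on both strands and occurred in 5506 of 32851 promoters of this length (16.8%). They were in none of these 4 windows, but in those of Klrb1c, Klrk1, Ncr1 and 1 of the 2 start sites of Klre1. The letters CTTTGA, a core bound by TCF-1, occurred in 5257 promoters (16.003%) and were in the windows of Klra7, Klrb1b and Klrk1. Klrd1 had no window to search for either set of letters. A match of letters is a description and not a binding site.

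Near-identical copies could mix the counts of these genes, so 98-base stretches, the length of the sequenced read, were compared with all other annotated transcripts. In the last 500 bases of the transcripts, where 3′ reads fall, no stretch of Klra4, Klra8, Klre1, Klrd1, Klrk1 or Ncr1 was shared with another gene. For Klra7 4.12% of the stretches were shared with Klra13-ps, and for Klra9 8.56% with Klra11-ps or Klra8. For Klrb1c the share was 10.7% and for Klrb1b 12.7%, so the values of both NKR-P1 genes are the less certain ones.

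In NK-like cells Klrk1, Klrd1, Klre1, Klrb1c and Ncr1 were found in most cells, while the 4 Ly49 genes were found in some cells and not in others. Klrk1 encodes NKG2D, which binds stress-induced ligands, and 93.5% of NK-like cells held its UMI. The share was 93.1% for Klrd1, whose product CD94 pairs with NKG2 proteins, and 90.6% for Klre1, which encodes a lectin-like receptor of NK cells. It was 90.2% for Klrb1c, which encodes the NK1.1 antigen, and 84.7% for Ncr1, which encodes the activating receptor NKp46. The Ly49 genes followed with 65.4% for Klra7, 64.4% for Klra8, 58.0% for Klra4 and 52.3% for Klra9. Klrb1b, which encodes an inhibitory receptor, was last at 23.6%.

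A UMI can be missed in a shallow cell, so the shares were counted again in 625 NK-like cells thinned to 1000 UMIs each. The order then was Klrk1 (73.1%), Klrd1 (69.9%), Klre1 (67.5%), Klrb1c (62.9%), Ncr1 (55.5%), Klra8 (52.5%), Klra4 (49.8%), Klra7 (47.5%), Klra9 (38.2%) and Klrb1b (13.4%). Thinning thus narrowed the gap between Ncr1 and the first Ly49 gene and exchanged the places of the Ly49 genes. Neutrophil-like cells, which should lack these receptors, held a UMI of each in 0.0432% to 0.662% of cells at a median of 1719 UMIs, against 2472 in NK-like cells.

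Levels in NK-like cells are given as CPM, the UMIs of a gene divided by all UMIs of these cells in a mouse and multiplied by 1000000. Since 3′ UMIs count transcript ends, they do not scale with transcript length. Over the 8 mice the means were 1365 ± 88.6 CPM for Klrk1, 1348 ± 281 for Klra4, 1198 ± 147 for Klrd1, 1095 ± 187 for Klre1 and 1093 ± 93.2 for Klra8 (SD, n = 8). They were 1053 ± 118 CPM for Klrb1c, 908 ± 203 for Klra7, 882 ± 87.7 for Ncr1, 667 ± 136 for Klra9 and 131 ± 34.3 for Klrb1b (SD, n = 8). Neighbours in this order differed by no more than the larger of their SDs, other than Klra9 under Ncr1 and Klrb1b under Klra9. The Ly49 gene Klra4 thus reached the level of Klrk1 although fewer cells held it.

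**Figure D1:**
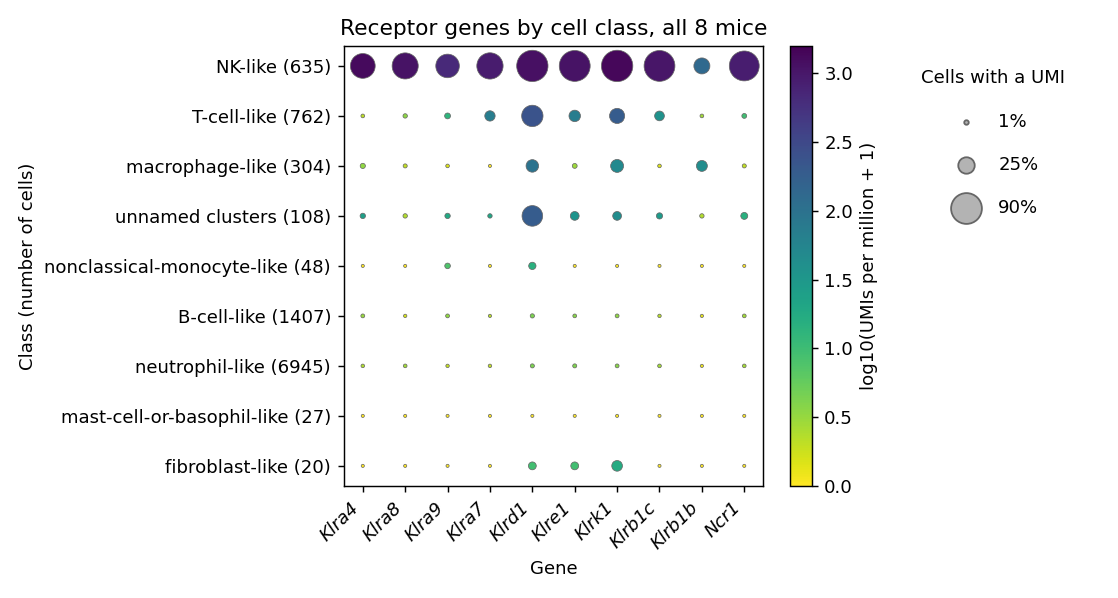
Receptor genes (horizontal axis) in each class of leukocyte (vertical axis, with its number of cells), over all 8 mice. The size of a point is the share of cells with a UMI and its colour the level as log10(CPM + 1). The NK-like row is filled for all 10 genes, with Klrd1, Klrk1, Klre1 and Klra7 in T-cell-like cells and Klrd1, Klrk1 and Klrb1b in macrophage-like cells.

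The cells chosen by the UMIs of Ncr1, Klrb1c, Klre1 and Klra8 were largely the same cells as the NK-like cluster. Of 709 such cells 630 (88.9%) were NK-like, which was 99.2% of the NK-like cells, 72 (10.2%) were T-cell-like and 7 belonged to other classes. As these 4 genes chose the cells, their shares among them are no finding, and the combinations of receptors below are described in NK-like cells.

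Ly49 genes were held in many combinations. Among the 625 thinned NK-like cells 77 (12.3%) had a UMI of none of the 4 Ly49 genes, 148 (23.7%) of 1, 208 (33.3%) of 2, 157 (25.1%) of 3 and 35 (5.60%) of all 4. If the 4 genes were held independently of each other at the shares seen in each mouse, the numbers would be 48.8 cells with none, 175 with 1, 234 with 2, 138 with 3 and 29.9 with 4. Cells with none, with 3 and with 4 were thus more frequent than the product of the shares gives, and cells with 1 or 2 less frequent. All 16 combinations occurred. The most frequent combination with a UMI was Klra4 with Klra7 and Klra8, in 79 cells against 47.6 from the product. Klra8 alone was in 35 cells against 52.9, Klra4 alone in 28 against 47.7, and Klra4 with Klra7 and Klra9 in 15 against 26.5. These are counts over cells of 8 mice and no test was made of them.

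**Figure D2:**
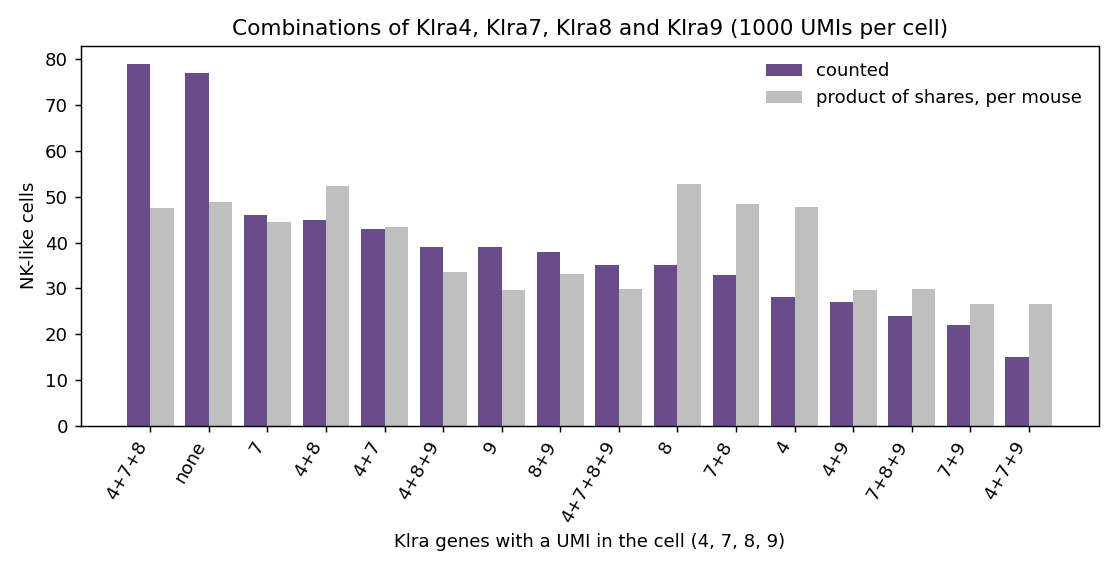
Number of NK-like cells (vertical axis, 625 cells thinned to 1000 UMIs) with each combination of Klra4, Klra7, Klra8 and Klra9 (horizontal axis). Purple bars are the cells counted and grey bars the product of the shares, taken in each mouse and summed. The purple bar stands clear of the grey one for 4 with 7 and 8 (79 against 47.6 cells) and for no gene (77 against 48.8).

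The activating genes Klra4 and Klra8 were the Ly49 pair found together most often relative to their shares. Both had a UMI in 198 cells, against 164 from the product, a ratio of 1.21. By mouse the ratio was 1.15, 1.09, 1.11 and 1.52 in Mono+MCTR3 mice, against 0.957, 1.27, 1.26 and 1.28 in Mono mice, so it was above 1 in 7 of 8. Klra4 with Klra7 had 172 cells against 148, a ratio of 1.17 that was above 1 in all 8 mice (1.04 to 1.20) and was 1.06 with cells thinned to 2000 UMIs. Klra7 with Klra8 had 171 against 156 (ratio 1.10, above 1 in 7 mice), and Klra8 with Klra9 136 against 127 (1.07, 5 mice). Klra4 with Klra9 had 116 against 120 (0.969, 3 mice). The inhibitory genes Klra7 and Klra9, which lie next to each other, were together in 96 cells against 113, a ratio of 0.851 that was above 1 in 1 mouse (0.543 to 1.23).

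Klrb1b stood against the activating Ly49 genes. It was found with Klra4 in 25 cells against 41.6 from the product (ratio 0.602) and with Klra8 in 33 against 44.6 (0.740), both below 1 in all 8 mice. With Klra9 it was found in 43 cells against 32.4 (1.33), above 1 in 6 mice. Over the 45 pairs of the 10 genes these were the lowest 2 ratios and the highest. The pairs among Klrk1, Klrd1, Klre1, Klrb1c and Ncr1 lay between 0.983 and 1.04. Cells of 1 mouse share a library and a mouse gave 42 to 158 NK-like cells, so these ratios are descriptions with no p-value.

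**Figure D3:**
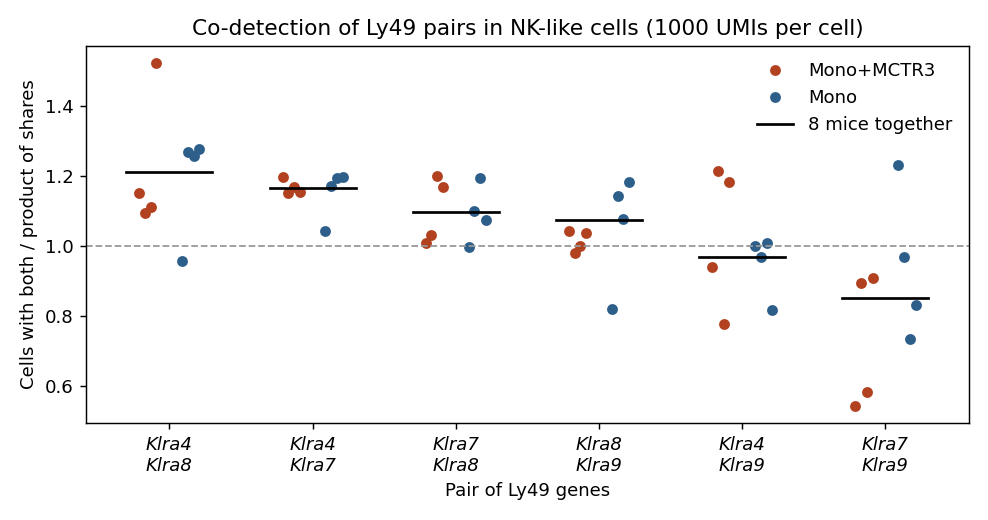
Cells with a UMI of both genes over the product of their shares (vertical axis) for the 6 pairs of Ly49 genes (horizontal axis) in NK-like cells thinned to 1000 UMIs. Points are mice, 4 Mono+MCTR3 and 4 Mono, black lines the 8 mice together and the dashed line a ratio of 1. Klra4 with Klra7 lies above 1 in all 8 mice, and Klra7 with Klra9 in 1.

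What else differed in NK-like cells that held a given Ly49 gene was tested over mice, with the thinned cells of each mouse split by a UMI of that gene, edgeR's quasi-likelihood test with the mouse as a block, and the gene that set the split left out. NK-like cells with Klra4 had less Klrc1 and more Klra8. Klrc1 encodes NKG2A, the inhibitory partner of CD94. It stood at 206, 139.9, 259.9 and 305 CPM in cells with a Klra4 UMI of Mono+MCTR3 mice 1 to 4, against 391, 529, 600.0 and 577 CPM in their cells without. In Mono mice 1 to 4 it stood at 91.1, 134, 188 and 146 CPM in cells with Klra4, against 227, 694, 342 and 701 in cells without. Klrc1 was thus lower with Klra4 in every mouse (log2 fold change -1.66, SE 0.21, edgeR adjusted p = 5.34e-06). With each mouse left out in turn its adjusted p was at most 0.00105. Klra8 had a median over mice of 1430.4 CPM with Klra4 and 949 without, higher in 7 of 8 mice (log2 fold change 0.67, SE 0.13, edgeR adjusted p = 0.00571). The Klra8 call was lost without Mono mouse 2 (edgeR adjusted p = 0.0507). Of 693 genes tested 4 passed (0.577%), and the other 2 were the interferon-induced Ly6e (log2 fold change -0.83, adjusted p = 0.0243) and the neutrophil gene S100a8 (-0.71, adjusted p = 0.0172). Ly6e was lost without Mono+MCTR3 mouse 1 or 4 or Mono mouse 1 or 2 (adjusted p up to 0.124), and S100a8 without Mono+MCTR3 mouse 4 or Mono mouse 1, 2 or 3 (up to 0.112). The count was 2 without Mono+MCTR3 mouse 4, Mono mouse 1 or Mono mouse 2 and 7 without Mono+MCTR3 mouse 2. Klrb1b had a median of 67.7 CPM with Klra4 and 216 without, lower in 8 of 8 mice, and did not pass (-1.35, SE 0.36, edgeR adjusted p = 0.0651).

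Neutrophil RNA had a lower median on the side with the Ly49 gene in each of these splits, and no test was made of these sums. UMIs of the 12 neutrophil markers had a median over mice of 41.4 per 10000 UMIs in cells with Klra4, against 77.2 in cells without, and were lower with Klra4 in 6 of 8 mice. The values were 37.3 with and 96.4 without Klra7 (lower with it in 5 of 8 mice), 38.7 and 74.6 for Klra8 (6 mice), and 38.4 and 69.9 for Klra9 (6 mice). With the called doublets removed S100a8 had a log2 fold change of 0.095 in the Klra4 split, and the other 3 genes still passed. In the 395 cells at or under the median of 4 neutrophil UMIs, a choice made after seeing the data, Klrc1 still passed in the Klra4 split and was the only gene to do so, while the log2 fold change of Klra8 was 0.66 (edgeR adjusted p = 0.0852).

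Cells with Klra9 had more Gzma and less of the chemokine gene Xcl1. Of 704 genes tested 10 passed (1.42%), 8 higher and 2 lower. Gzma stood at 14033, 13861, 21485 and 13589 CPM in cells with a Klra9 UMI of Mono+MCTR3 mice 1 to 4, against 9250.0, 9310.3, 9625 and 9550.0 CPM in their cells without. In Mono mice 1 to 4 the values were 16321, 13589, 13407 and 16099 CPM with Klra9, against 11967, 9811, 11205 and 10191 without. Every value with Klra9 was above every value without, and the log2 fold change was 0.62 (SE 0.08, edgeR adjusted p = 6.23e-06). The values with Klra9 rest on few thinned cells, 25, 36, 18 and 9 in Mono+MCTR3 mice 1 to 4 and 14, 64, 26 and 47 in Mono mice 1 to 4. Gzmb, which encodes granzyme B, had a median of 1294 CPM with and 759.7 without Klra9 (0.64, adjusted p = 0.0396). The chymase gene Cma1 had 833 CPM with and 383 without (0.71, adjusted p = 0.0379), and Ly6c2, a surface antigen gene of mature NK cells among others, 1310.1 and 667 (0.92, adjusted p = 0.00588). The chemokine gene Ccl5 (0.24), Emp3 (0.61) and the noncoding RNAs Malat1 (0.33) and AW112010 (0.35) also rose. Xcl1, which attracts cross-presenting dendritic cells, had 788 CPM with and 1656 without Klra9, lower in 8 of 8 mice (-0.84, SE 0.15, edgeR adjusted p = 0.00137), and Ctla2a, which encodes a protease inhibitor, fell by 0.88 on the log2 scale. Gzma, Xcl1, Malat1 and Ly6c2 passed with each mouse left out in turn, while the count was 6, 5 and 4 without Mono+MCTR3 mice 1, 2 and 3, 5 without Mono mouse 1 or 2 and 15 without Mono mouse 3. The other 6 genes lost the call without 5 or more of the 8 mice in turn, with an adjusted p of up to 0.185 for Ccl5, 0.149 for Cma1, 0.13 for Emp3, 0.126 for AW112010, 0.121 for Gzmb and 0.102 for Ctla2a. In the 395 cells with few neutrophil UMIs 5 genes passed, namely these 4 and Gzmb.

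No gene passed in the splits by the other Ly49 genes. For Klra7 this was 0 of 627 genes by edgeR (0%; 38 at an unadjusted p under 0.05). Klra4 was higher in cells with Klra7 in 8 of 8 mice, with a median of 1439 CPM against 1032 without (log2 fold change 0.53, SE 0.12, adjusted p = 0.0646, but 0.15 with cells thinned to 2000 UMIs and 0.25 without thinning). Klra9 had 553 CPM with Klra7 and 936 without, lower in 7 of 8 mice (-0.55, SE 0.18, adjusted p = 0.317, and 0.0452 without Mono mouse 1). The Klra7 count was 3 without Mono+MCTR3 mouse 4 or Mono mouse 2. For Klra8 the count was 0 of 673 by edgeR (0%; 53 unadjusted), and 1 without Mono+MCTR3 mouse 3. Klra4 had a median of 1381 CPM with Klra8 and 922 without (0.66, SE 0.16, adjusted p = 0.228). Klrc1 also had a lower median with Klra8 (248 CPM against 465 without) and with Klra7 (236 against 359). In each of these splits it was higher with the Ly49 gene in 2 of 8 mice. With each mouse left out in turn its log2 fold change was -0.96 to -0.52 for Klra8 and -0.75 to -0.35 for Klra7. Over 13 other settings its lowest edgeR adjusted p was 0.0047 for Klra8 and 0.181 for Klra7. Lower Klrc1 was thus not confined to the Klra4 split.

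Other genes of the complex were read from lists. Of 7 further Ly49 genes 2 had enough UMIs in the Klra4 split. Klra1, which encodes the inhibitory Ly49A, had a log2 fold change of 1.14 with Klra4 and 1.14 with Klra7 (adjusted p = 0.114 and 0.257). Klra3, which encodes the inhibitory Ly49C, had 0.05 with Klra4 and -0.63 with Klra7. Of 14 other genes of the complex 5 were tested in the Klra4 split and 1, Klrc1, passed, against 4 of all 693 genes (0.577%). In the Klra9 split, where 10 of all 704 genes passed (1.42%), 3 of 10 tested effector genes (of 14 listed) passed as higher and 1 as lower. Of 6 tested genes of mature NK cells (of 10 listed) 2 passed, Cma1 and Ly6c2, both higher. Of 11 tested NK markers (of 14 listed) 3 passed as higher and 1 as lower, with a median log2 fold change of -0.03 against 0.03 over all genes. These lists share genes, as Gzma, Ccl5 and Xcl1 are also effector genes and Cma1 also a gene of mature NK cells, so the counts are not separate. Of the 17 adaptor and signalling genes, Tyrobp and Hcst included, none passed in any of the 4 splits, where 4 to 6 were tested.

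Outside the NK-like cells the receptor genes were found in T-cell-like and macrophage-like cells. Of all UMIs in the cells kept, NK-like cells held 98.001% for Klra8, 97.6% for Klra4 (2232 of 2287), 95.7% for Ncr1, 94.3% for Klra9, 92.1% for Klrb1c, 87.3% for Klra7, 87.0% for Klre1, 77.1% for Klrk1, 69.4% for Klrb1b and 65.7% for Klrd1. T-cell-like cells held 21.5% of the Klrd1, 17.1% of the Klrk1, 10.8% of the Klra7 and 8.95% of the Klre1 UMIs, and macrophage-like cells held 27.5% of the Klrb1b UMIs. The activating Ly49 genes were thus the ones most nearly restricted to NK-like cells.

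In the 762 T-cell-like cells Klrd1 was at 241 CPM, Klrk1 at 192, Klre1 at 71.4, Klra7 at 69.9 and Klrb1c at 36.2, against 12.3 for Klra9, 8.70 for Ncr1, 2.54 for Klra8 and 1.09 for Klra4. A clustering at a finer resolution gave 2 T-cell-like clusters, which need not hold exactly the same cells as the class. One, of 352 cells with Trdc and Cxcr6 among its leading genes, had Klrk1 at 409.998 CPM, Klrd1 at 342, Klre1 at 153, Klra7 at 147 and Klrb1c at 77.3. The other, of 411 cells with Lef1 and Cd8b1 among its leading genes, had Klrd1 at 157 CPM and each other receptor gene at 8.71 or less.

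A set of receptors was found together in T-cell-like cells with a UMI of the inhibitory Klra7. There were 71 such cells, 3 to 14 in each mouse, and 94.4% of them held Cd3d, against 90.7% of the 691 without Klra7. Cd3e was in 71.8% with and 74.7% without Klra7, and Cd3g in 91.5% and 93.3%. In cells thinned to 1000 UMIs the shares were 61.4% and 60.3% for Cd3d, 31.4% and 36.4% for Cd3e and 55.7% and 62.6% for Cd3g. Klre1 was in 60.6% with and 6.66% without Klra7, higher in 8 of 8 mice, Klrb1c in 42.3% and 4.63% (8 mice), Klrk1 in 62.0% and 16.8% (7 mice) and Klrd1 in 80.3% and 38.9% (7 mice). With each cell thinned to 1000 UMIs, since the cells with Klra7 were deeper (median 4571 against 3460 UMIs), the shares were 31.4% and 3.78% for Klre1, 17.1% and 1.31% for Klrb1c, 34.3% and 10.9% for Klrk1 and 34.3% and 16.9% for Klrd1. UMIs of the activating Ly49 genes were few in T-cell-like cells with and without Klra7. With Klra7, Klra4 had a UMI in 0 of 71 cells, which allows up to 4.23% of cells with a UMI (counting error only, and no limit on cells that express the gene), and Klra8 in 1 of 71. Without Klra7 the shares were 0.434% for Klra4 and 0.868% for Klra8. Klra9 was in 9.86% with and 1.59% without Klra7, higher in 4 of 8 mice, and in 5.71% and 0.582% when thinned. Of the NK markers, Nkg7 was in 98.6% of cells with and 63.4% of those without Klra7, higher in 8 of 8 mice, and in 81.4% and 43.1% when thinned, while Gzma was in 2.86% and 5.97% when thinned. Cd8b1 was in 12.9% and 40.2% of thinned cells, lower with Klra7 in all 8 mice before thinning.

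In macrophage-like cells Klrd1, Klrb1b and Klrk1 were at higher levels in cells with dendritic cell genes, over the mice pooled. Of 304 cells 83 held a UMI of Flt3 or Cd209a, genes of dendritic cells, and 221 did not. Cells were not thinned for this split or its shares, so depth was not equalised in it. Klrd1 was at 248.9 CPM with and 25.4 without them (39.8% and 4.52% of cells), Klrb1b at 114 and 12.01 CPM (28.9% and 3.62%), and Klrk1 at 106 and 21.9 CPM (36.1% and 7.24%). Mono+MCTR3 mouse 2 held 29 and Mono mouse 4 held 32 of the 72 Klrb1b UMIs in the 83 cells, and 56 and 44 of the 157 Klrd1 UMIs, with 23 and 24 of the cells. Klra7, Klra8, Klra9 and Klrb1c had no UMI in the 83 cells. An unnamed cluster of 77 cells had Klrd1 at 216 CPM, in 51.9% of its cells. Its leading genes were mostly muscle genes such as Acta1, which had a UMI in 5.19% of the cells, with Siglech, seen in 64.9%, among them. All 7 listed markers of plasmacytoid dendritic cells, Siglech included, were detected in it, each in a mean of 67.5% of its cells. With 30 components 49 cells formed a cluster named as plasmacytoid dendritic cells, and whether these are the same cells was not tested. These splits are descriptions, made after the classes were seen.

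The genes whose level followed the 10 receptors most closely were found by the correlation of log2(CPM + 10) with the summed CPM of the members, over 39 sums of a class in a mouse from 6 classes. They were Dok2 (r = 0.962), an adaptor of receptor signalling, Lpin1 (0.955), Spn (0.951), which encodes CD43, Cst7 (0.949), an inhibitor of lysosomal proteases, Prkch (0.947), Cd7 (0.946), Rnaset2b (0.943), Ppm1j (0.942), Samd3 (0.942) and 1700025G04Rik (0.941). The sums of a class share their cell type and the sums of a mouse their library, so these values describe a pattern over classes.

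Between the groups, the first question was whether MCTR3 treatment of the transferred monocytes went with another number of NK-like cells. They were 4.26%, 4.91%, 4.17% and 6.99% of the cells in Mono+MCTR3 mice and 3.82%, 10.01%, 6.11% and 8.63% in Mono mice. The means were 5.08% ± 1.31 in Mono+MCTR3 and 7.14% ± 2.74 in Mono mice (SD, n = 4 each), a difference of -2.06 percentage points within the spread between mice (two-sided exact permutation test, p = 0.257, where 0.0286 is the smallest possible). The groups overlapped, and the difference was -1.10 without Mono mouse 2 and -3.17 without Mono mouse 1. Cells chosen by the UMIs of Ncr1, Klrb1c, Klre1 and Klra8 made up 5.61% in Mono+MCTR3 and 8.02% in Mono mice.

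Within NK-like cells no receptor gene passed the threshold between the groups after adjustment over all genes tested. By edgeR 0 of 2237 genes passed an adjusted p of 0.05 (0%; 107 at an unadjusted p under 0.05). DESeq2 and edgeR's likelihood ratio test also called 0 (28 and 111 unadjusted). None of the 10 members passed, and 1 of them had an unadjusted p under 0.05 by edgeR. The largest difference among the members was in the activating Klra4, at 1691, 1199, 1792 and 1450.0 CPM in Mono+MCTR3 mice and 1103, 1377, 1154 and 1019.9 CPM in Mono mice. Of the Mono+MCTR3 mice 3 lay above all Mono mice and 1 among them, with means of 1533 ± 265 in Mono+MCTR3 and 1163 ± 153 CPM in Mono mice (SD, n = 4 each; log2 fold change 0.40, SE 0.14, edgeR adjusted p = 0.926). Under 21 other settings, by edgeR or DESeq2, its log2 fold change was 0.31 to 0.50, with an unadjusted p of 0.0012 to 0.042. The share of NK-like cells with a Klra4 UMI, without thinning, was 61.9% ± 7.09 in Mono+MCTR3 and 56.3% ± 5.55 in Mono mice (SD, n = 4 each).

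Klra8 was at 1197, 1089.7, 1097 and 988 CPM in Mono+MCTR3 mice and 1024, 1259.8, 1070.0 and 1016 CPM in Mono mice (log2 fold change 0.01, SE 0.12). Klra7 was at 598, 754, 1156 and 896 CPM in Mono+MCTR3 mice and 836, 1026, 1188 and 815 CPM in Mono mice (-0.19, SE 0.18). Klra9 was at 878, 644, 627 and 597 CPM in Mono+MCTR3 mice and 526, 675, 527 and 862 CPM in Mono mice (0.08, SE 0.17). The groups overlapped in each of these Ly49 genes. Klrb1b was at 156, 113, 78.4 and 107 CPM in Mono+MCTR3 mice and 173, 109.8, 140.0 and 171 CPM in Mono mice (-0.28, SE 0.22). Klrd1 was at 1157, 1334, 1479 and 1116 CPM in Mono+MCTR3 mice and 1125, 1049, 1076 and 1246 CPM in Mono mice (0.20, SE 0.13). Klrk1 (-0.08), Klre1 (-0.04), Ncr1 (-0.03) and Klrb1c (0.05) had log2 fold changes within 0.1 of 0, with SEs of 0.11 to 0.15. Over the 10 members the median was -0.01, against 0.01 over all 2237 genes, with 5 of 10 positive. Among 2 tested further Ly49 genes, 9 other genes of the complex, 13 adaptor and signalling genes and 11 effector genes none passed. Neutrophil marker UMIs summed to 3446 to 10139.6 CPM in NK-like cells of Mono+MCTR3 mice and to 6030.0 to 9635 CPM in those of Mono mice.

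**Figure D4:**
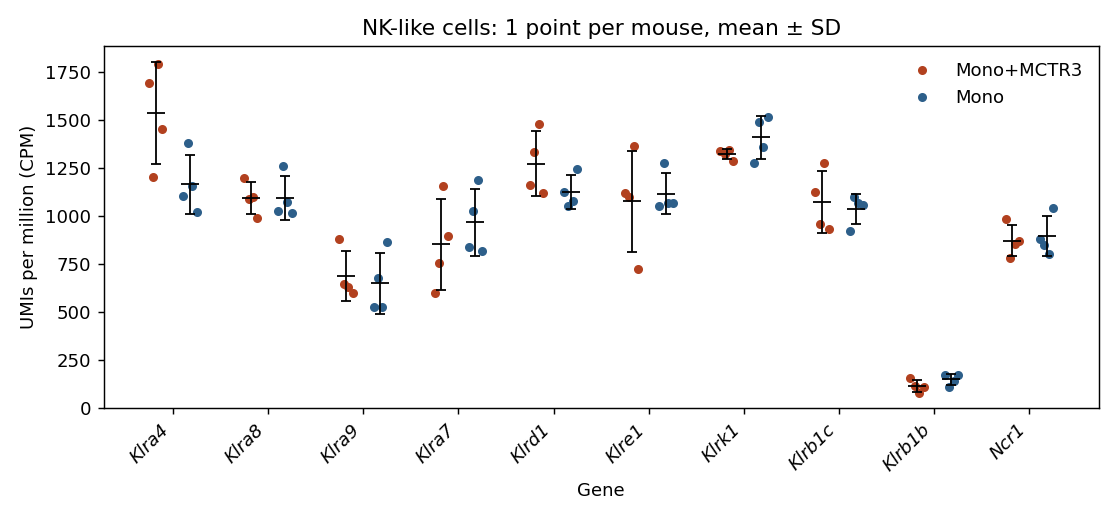
Level in NK-like cells (CPM, vertical axis) of the 10 receptor genes (horizontal axis), with 1 point per mouse, Mono+MCTR3 left of Mono, and bars for the mean ± SD (n = 4 mice per group). The groups overlap for every gene; for Klra4 the means are 1533 CPM in Mono+MCTR3 and 1163 CPM in Mono mice.

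In T-cell-like cells 5 members had enough UMIs to be tested, and all 5 had a negative log2 fold change, with a median of -0.39 against 0.01 over all genes. By edgeR 0 of 3434 genes passed (0%; 179 unadjusted), DESeq2 called 0 (53 unadjusted) and the likelihood ratio test 1 (189 unadjusted), as did edgeR's main test without Mono mouse 1. Klrd1 was at 194, 198, 231 and 204 CPM in Mono+MCTR3 mice and 249.2, 189, 342 and 317 CPM in Mono mice (-0.39, SE 0.17, edgeR adjusted p = 0.917). Klra7 was at 66.2, 46.5, 95.1 and 56.9 CPM in Mono+MCTR3 mice and 77.1, 87.8, 166 and 38.0 CPM in Mono mice (-0.38, SE 0.35). Klrb1c had -0.49 (SE 0.34), Klre1 -0.39 (SE 0.34) and Klrk1 -0.12 (SE 0.19), and the groups overlapped in each. Klra9 was at 6.41, 6.97, 6.79 and 0 CPM in Mono+MCTR3 mice and 20.8, 18.6, 28.5 and 12.1 CPM in Mono mice. These values rest on 3, 3, 1 and 0 UMIs against 7, 7, 6 and 7, too few for a test.

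Over all cells together, where fewer NK cells and less RNA per cell cannot be told apart, all 10 members had a negative log2 fold change (median -0.51 against 0.01 over all genes). In the same fit all 14 NK markers were negative (median -0.45) and all 12 neutrophil markers positive (median 0.38), with none past the threshold. The members lay between -0.71 (SE 0.33) for Klrb1b and -0.08 (SE 0.34) for Klra4, and none passed. Of 9002 genes 2 passed (0.0222%), neither of them a member, and the count was 0 without Mono+MCTR3 mouse 1 or 4 or Mono mouse 1 or 2. The share of NK-like cells, 5.08% in Mono+MCTR3 and 7.14% in Mono mice, moved the same way as the members, and the part of that share and of these markers in the values was not tested.

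**Figure D5:**
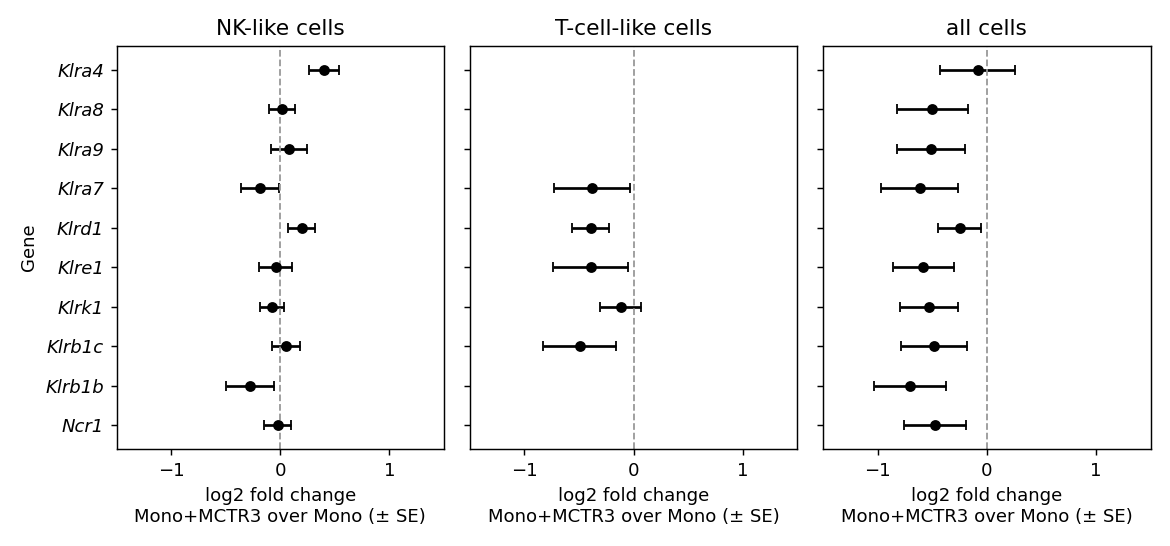
Log2 fold change of Mono+MCTR3 over Mono (horizontal axis, bars are the SE) of the receptor genes (vertical axis) in NK-like cells, T-cell-like cells and all cells, 4 mice per group. Points lie on either side of 0 in NK-like cells and all below 0 in T-cell-like cells (5 genes) and over all cells (10 genes), where none passed the threshold.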

How the data were processed

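UMI counts per gene and cell barcode were deposited by the authors, 1 table per group, made with Cell Ranger (aligner STAR, genome GRCm38) and joined over the mice of a group with its aggregation step, separately for each group. The paper gives its aim as normalising the cells within a group, and does not say further whether read depth was equalised. If it was, each group was handled apart, so the groups could be left at different depths. UMI totals and unthinned shares of cells with a UMI could then differ between the groups for that reason, which was not tested. Tool versions: not given in the sources used here. Cells were kept with 500 UMIs or more, 250 to 3000 genes and no more than 5% of UMIs from mitochondrial genes. The 10 members and all gene lists were chosen with earlier results of these data known.

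Clusters were formed by Seurat 5.3.0 under R 4.3.3 from 2000 variable genes without the members (20 components, resolution 0.5) and named from marker lists. Scrublet in scanpy 1.11.5 called 52 doublets (0.507%), which were kept. Any 2 mice of the same group had 0 to 8 barcodes in common. For the shares given as thinned, and for the combinations, co-detection and Ly49 splits of NK-like cells, each cell was thinned to 1000 UMIs (seed 1). The T-cell-like cells with Klra7 and the macrophage-like cells with Flt3 or Cd209a were chosen by unthinned UMIs. UMIs were summed per mouse and tested with edgeR 4.0.16 (TMM, filterByExpr, quasi-likelihood test, Benjamini-Hochberg adjusted p under 0.05). In simulated data for the groups in NK-like cells it recovered 85% of 100 genes changed 2-fold and 99% of 100 changed 4-fold. It made 17 false calls there, with 2237 genes simulated. For the Klra9 split it recovered 91% and 99%, with 5 false calls and 704 genes simulated. The block in the split fits is the mouse. DESeq2 1.42.0, edgeR's likelihood ratio test and other filters, clusterings and thinnings were alternatives. Python 3.11.15 with numpy 2.4.6, scipy 1.17.1, pandas 2.3.3, biopython 1.88 and matplotlib 3.10.9 served for the rest. Suffixes are taken as mice, and p-values measure the spread between them. UMI counts of single cells limit shares by counting error.

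Genes named are the 10 members, genes of the lists and of the splits past the threshold (at most 10 by size in each direction), and the 10 genes most correlated with the members. Klra1, Klra3, genes naming clusters and those of the T-cell-like and macrophage-like splits were named after their values were seen. The genes called over all cells are not reported here.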

Additional observations from a re-analysis of the deposited data

Results flagged for a closer look

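Among 44 groups of 4 mice tested for 1 value far from the others (Dixon's ratio), 5 had such a mouse, where chance gives about 1 in 20. In NK-like cells Klra9 was at 878 CPM in Mono+MCTR3 mouse 1, against 597 to 644 in the other Mono+MCTR3 mice. Klre1 was at 1274 CPM in Mono mouse 2, against 1053 to 1064 in the other Mono mice. In T-cell-like cells Klrb1c was at 67.9 CPM in Mono+MCTR3 mouse 3, against 21.4 to 28.4. The ratio of co-detection of Klra4 and Klra8 was 1.52 in Mono+MCTR3 mouse 4, against 1.09 to 1.15 in the other Mono+MCTR3 mice, and 0.957 in Mono mouse 1, against 1.26 to 1.28 in the other Mono mice.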

How the results depend on the processing

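The share of NK-like cells stayed lower in Mono+MCTR3 under all 16 other settings, and no member passed the threshold between the groups under any setting run. Between the groups, changes of direction concerned members with a log2 fold change within 0.1 of 0. In NK-like cells the log2 fold change of Klra8 was -0.0053 with library totals in place of TMM, -0.031 with no filter on low counts and -0.010 with 30 components, and that of Ncr1 was 0.036 in cells chosen by the 4 receptor genes and 0.013 with up to 10% mitochondrial UMIs. With 1 mouse left out Klra8 ranged from -0.023 to 0.084, Klra9 from -0.048 to 0.25, Klrb1c from -0.043 to 0.11, Klre1 from -0.17 to 0.10 and Ncr1 from -0.080 to 0.061, and over all cells Klra4 from -0.29 to 0.37. With no filter on low counts the genes called were 3 in NK-like cells, 27 in T-cell-like cells and 10 over all cells. The likelihood ratio test called 1 in T-cell-like cells and 20 over all cells, and DESeq2 8 over all cells. With 1 mouse left out the counts ranged from 0 to 1 in T-cell-like cells and from 0 to 7 over all cells, from 2 to 7 in the Klra4 split, 0 to 3 for Klra7, 0 to 1 for Klra8 and 4 to 15 for Klra9, where Klra4 ranged from -0.24 to 0.056. The splits depended on depth and on the cells taken. Without thinning the counts were 13 for Klra4, 8 for Klra8 and 33 for Klra9, and at 2000 UMIs 3 for Klra8 and 21 for Klra9. In cells with at least 2 UMIs of Ncr1, Klrb1c and Klre1, which by construction include T-cell-like cells, they were 40 for Klra4, 1 for Klra7, 49 for Klra8 and 110.0 for Klra9. In cells with few neutrophil UMIs they were 1 for Klra4 and 5 for Klra9. In the Klra4 split Klra9 had 0.0091 in the cells of that choice, and S100a8 had 0.095 with doublets removed. In the Klra8 split S100a8 had 0.32 with doublets removed and 0.19 in cells with few neutrophil UMIs, and in the Klra9 split 0.14 in cells with few neutrophil UMIs. In the Klra9 split Klra4 had 0.0011 without thinning, 0.041 at 2000 UMIs and 0.011 in cells with the 3 genes, and Klrc1 had -0.25 without thinning and -0.22 at 2000 UMIs. Klra4 with Klra7 had a ratio of co-detection of 1.07 without thinning and 1.06 at 2000 UMIs. In cells with at least 1 UMI of the 4 genes the ratio was 1.497 for Klra4 with Klra7, 1.66 with Klra8 and 1.323 with Klra9, 1.36 for Klra7 with Klra8, 1.09 for Klra7 with Klra9 and 1.42 for Klra8 with Klra9. The cause was not tested. No paired analysis was possible because the barcode suffixes number different mice in each group. With 42 to 158 NK-like cells per mouse, a gene held by few cells could not be tested.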
